A study of Mus musculus with 2 samples.

Results

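The genes described here encode EGF family ligands (Hbegf, Areg, Ereg, Tgfa and Btc), their receptors (Egfr, Erbb2 and Erbb3), the receptor inhibitor Errfi1 and the sheddase Adam17. The members were taken by gene symbol from the annotation of the array, and this gave 23 probe sets, out of 45037 once controls are left out. They belong to 9 of the 10 genes. Areg has no probe set in the annotation used here and was not analysed. The measurements come from HT22, an immortalised line from the mouse hippocampus, and no tissue was measured. One culture was treated with J147 for 1 h, at a concentration that the methods of the study give as 10 μM and the sample labels as 10 mM. The control culture received the DMSO vehicle for 1 h, and both cultures had been plated the day before in DMEM plus 10% FCS. Each condition had 1 Affymetrix mouse GeneChip. No value therefore has a replicate, no p-value could be computed, and an effect of J147 and some other difference between the cultures cannot be told apart. In cultures measured as a whole, fewer cells with an mRNA and less mRNA per cell cannot be told apart either.

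EGF family ligands are made as membrane proteins, and metalloproteases such as ADAM17 cut them free so that they can reach receptors on the same cell or its neighbours. Ligand binding pairs the receptors into dimers, which phosphorylate each other and signal through RAS and ERK as well as PI3 kinase. HB-EGF, epiregulin and betacellulin bind both EGFR and ERBB4, TGF-alpha and amphiregulin bind EGFR, ERBB2 has no known ligand of its own, and ERBB3 has little kinase activity and signals through its partners. The genes of several ligands and of the inhibitor ERRFI1 (also called MIG6) are themselves transcribed in response to growth factor signalling, so the pathway has both feed-forward and feedback loops. In the brain, these ligands act on neural precursors, neurons and glia.

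The values are gcRMA intensities on the log2 scale, and 46.0% of the probe sets on the J147 array and 46.3% on the vehicle array lay within 0.01 of the lowest value of the table, 2.23, at which levels have no order and a change cannot be seen. With the median intensity of each array set to 100, the 22545 probe sets with a mean above 100 were scored. Of these, 98.4% differed by less than 1.5-fold, and the SD of the log2 difference was 0.18. Of the probe sets for the EGF family, 14 were scored, from 8 genes, and the other 9 lay at the lowest value for J147 and vehicle alike. Of the control probe sets, 18S rRNA had a median log2 difference of -0.63 the labelling spikes one of -0.15 and the hybridization spikes one of 0.13, while the difference between 3′ and 5′ probe sets changed by -0.06 for Gapdh and by -0.03 for Actb. Their part in the results was not tested. Of 8 neuron markers 3 were above the lowest value, among them Tubb3 but not Map2, Snap25 or Rbfox3, and the numbers were 6 of 7 for fibroblast, 2 of 5 for astrocyte, 1 of 5 for microglia and 2 of 4 for epithelial markers. These counts do not give levels, and some of the genes counted lay close to the lowest value. On the J147 array the neuron marker Camk2a was at 2.56, and the epithelial markers Epcam and Krt8 at 2.85 and 2.58.

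Hbegf and Ereg, the genes of the ligands HB-EGF and epiregulin, were higher on the J147 array, Errfi1 was higher by a smaller amount, and the receptors and Adam17 were mostly near an equal level. On the J147 array 3 of the 14 scored probe sets were higher by at least 1.5-fold, against 0.856% of all scored probe sets, and these were both of Hbegf and that of Ereg. At least 1.5-fold lower was 1 probe set, of Egfr, against 0.781% of all. At least 2-fold higher was 1, of Hbegf, against 0.0754%, and none was 2-fold lower, against 0.071%. The other 10 were neither 1.5-fold higher nor 1.5-fold lower. Taking log2 differences as J147 minus vehicle, the median was 0.13 over the 14 probe sets, and -0.00 over all scored probe sets. With quantile normalization or a lowess correction 2 were 2-fold higher, both of Hbegf, and with 50 added to each intensity 0 were, while with no filter on intensity the median of the family was -0.0046. These counts describe 1 pair of arrays. The members were chosen with earlier results of these data known, so the counts and median are not a test of the family. Probe sets of 1 gene measure the same mRNA pool and are not replicates of the treatment.

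**Figure D1:**
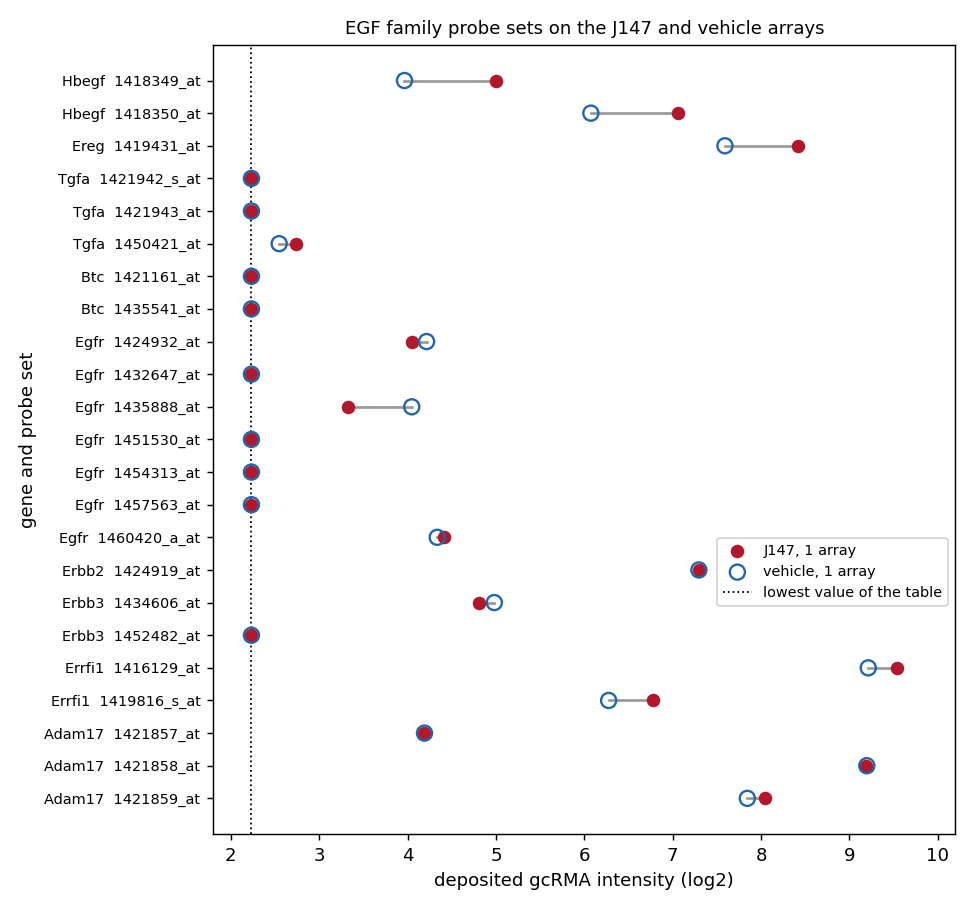
Deposited gcRMA intensity on the log2 scale (horizontal axis) of the 23 probe sets of the EGF family genes (vertical axis) on the J147 array (filled circles) and the vehicle array (open circles), 1 array each, joined by grey lines. A dotted line marks the lowest value, 2.23, where 9 probe sets lie on both arrays, and the longest lines are those of Hbegf, Ereg and the Egfr probe set 1435888_at.

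HB-EGF is a heparin-binding ligand, and both probe sets of its gene, designed from the same sequence record, were higher on the J147 array by close to the same amount. Hbegf probe set 1418350_at gave scaled intensities of 2708 for J147 and 1367 for vehicle, which is 1.98-fold higher. Probe set 1418349_at had 648 for J147 and 317 for vehicle, which is 2.05-fold higher. Their log2 differences, 0.99 and 1.03, were 0.05 apart. The SD was 0.22 among the 500 scored probe sets nearest in level to the first and 0.25 among those nearest to the second. Probe sets designed from 1 sequence record read the same mRNA on the same arrays, so their closeness adds no support to the rise. Among all scored probe sets those of Hbegf held places 20 and 13 in order of the rise. Since the scatter between the arrays depends on level, each was also set against probe sets in its own range of level. Both lie where the mean scaled intensity is between 8 and 11 on the log2 scale, a range in which 1.9% of the probe sets were at least 1.5-fold higher and 1.9% at least 1.5-fold lower. There, 7 of 5306 other probe sets exceeded the difference of 1418349_at and 11 exceeded that of 1418350_at.

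Epiregulin, a ligand known from tissue repair and ovulation, was measured by a single probe set and was also higher on the J147 array. Ereg probe set 1419431_at gave scaled intensities of 6902 for J147 and 3912 for vehicle, which is 1.76-fold higher. Its log2 difference was 0.82, against an SD of 0.17 among the 500 probe sets nearest in level. In the range of level above 11 on the log2 scale, 0.486% of the probe sets were at least 1.5-fold higher, and 15 of 12767 others exceeded the difference of Ereg. By the brightest probe set of each gene, Hbegf was at place 9 and Ereg at place 20 of 10611 scored genes, of which 0.556% were at least 1.5-fold higher.

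The remaining ligands were at or near the lowest value. TGF-alpha is a ligand of EGFR and its gene Tgfa has 3 probe sets, of which 1421942_s_at and 1421943_at lay at the lowest value with and without J147. The other, 1450421_at, had a log2 intensity of 2.74 for J147 and 2.55 for vehicle, a log2 difference of 0.19 after scaling beside an SD of 0.15 among its neighbours in level. Betacellulin, the product of Btc, has 2 probe sets, and neither lay above the lowest value on either array, so no fold is given. This does not show that the mRNA of Btc or Tgfa was absent. Epgn, Ereg, Areg and Btc follow one another in that order on chromosome 5 of the mouse, with no other protein-coding gene of the RefSeq table between them. Of these, Ereg was the only one measured above the lowest value, with Epgn at that value on each array and Areg not analysed.

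ERRFI1 binds the kinase domain of EGFR and ERBB2 and holds it inactive, and both probe sets of its gene were higher on the J147 array, by less than 1.5-fold. Errfi1 probe set 1416129_at gave scaled intensities of 15036 for J147 and 12035 for vehicle, a fold of 1.25. Probe set 1419816_s_at had 2213 for J147 and 1571 for vehicle, a fold of 1.41. The log2 differences of 0.32 and 0.49 stand beside SDs of 0.14 and 0.23 among neighbours in level. Those SDs give the spread across other probe sets on 1 pair of arrays and are not errors of the Errfi1 values. In their own ranges of level, 313 of 12767 other probe sets exceeded the difference of 1416129_at and 158 of 5306 that of 1419816_s_at. The suffix of 1419816_s_at marks probes that may match more than 1 transcript.

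The promoter of Errfi1 is shown because it holds the only match, among the windows searched, that belongs to a gene with a measured level. RefSeq promoter windows of GRCm38.p6, from 250 bases before to 50 after a start, were given for 7 of the 10 genes, with 8 windows in all, and Hbegf, Ereg and Erbb3 were not searched. The windows were searched on both strands for the cAMP response element TGACGTCA, the EGR site GCGNGGGCG, the AP-1 site TGANTCA and the CArG box bound by SRF. The cAMP response element was in 2 windows, 1 of 2 for Errfi1 and that of Areg, and 1.79% of all windows hold it. The EGR site, the AP-1 site and the CArG box were in none of the 8, and in 5.55%, 7.81% and 1.63% of all windows. A match is a description of these letters and does not show that a factor binds. The Errfi1 window with the match lies at chr4:150854820-150855119 on the plus strand, and capitals mark the element, which begins at position -51 from the start.
Errfi1: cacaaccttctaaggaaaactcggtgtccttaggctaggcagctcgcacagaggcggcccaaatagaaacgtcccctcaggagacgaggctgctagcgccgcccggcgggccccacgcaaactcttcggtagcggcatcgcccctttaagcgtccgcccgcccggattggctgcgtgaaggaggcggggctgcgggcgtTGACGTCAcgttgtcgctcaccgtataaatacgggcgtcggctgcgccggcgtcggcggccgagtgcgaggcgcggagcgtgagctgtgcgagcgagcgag

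EGFR is the shared receptor of these ligands, and the 7 probe sets of its gene gave different answers. Of the 7, 4 did not exceed the lowest value on either array, namely 1432647_at, 1451530_at, 1454313_at and 1457563_at. Egfr probe set 1460420_a_at gave scaled intensities of 431 for J147 and 410 for vehicle, a fold of 1.05. Probe set 1424932_at had 335 for J147 and 377 for vehicle, a log2 difference of -0.17 beside an SD of 0.22 among its neighbours in level. The remaining one, 1435888_at, had 203 for J147 and 335 for vehicle, which is 1.65-fold lower, with a log2 difference of -0.72 beside an SD of 0.23. In its range of level, 42 of 5306 other probe sets had a difference at least as far below 0. The log2 differences of the 3 scored probe sets thus spanned 0.80, and no single direction can be given for Egfr. By its brightest probe set, 1460420_a_at, Egfr was not past 1.5-fold. The lowest-value probe sets include 1451530_at, which was designed from the same sequence record as 1424932_at.

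The other receptors showed no difference past 1.5-fold. Erbb2 encodes the partner that other ERBB receptors pair with, and its single probe set 1424919_at had the same deposited log2 intensity, 7.30, on both arrays. Identical values on both arrays were found for 18.9% of all scored probe sets, and what produces them was not tested, so this pair does not measure how close the true levels were. Erbb3 probe set 1434606_at gave scaled intensities of 569 for J147 and 641 for vehicle, a log2 difference of -0.17 beside an SD of 0.25. The second Erbb3 probe set, 1452482_at, stayed at the lowest value with either treatment.

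ADAM17 releases HB-EGF, TGF-alpha, amphiregulin and epiregulin from the cell surface, and its gene had 3 scored probe sets, all designed from 1 sequence record. The brightest, 1421858_at, had a scaled intensity of 11811 for J147 and 11898 for vehicle, a log2 difference of -0.01. Adam17 probe set 1421859_at had 5318 for J147 and 4662 for vehicle, a fold of 1.14 beside an SD of 0.18 among neighbours in level. Probe set 1421857_at had identical deposited values, 4.19 on the log2 scale. The arrays measure mRNA and give neither the activity of the protease nor the amount of ligand released.

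**Figure D2:**
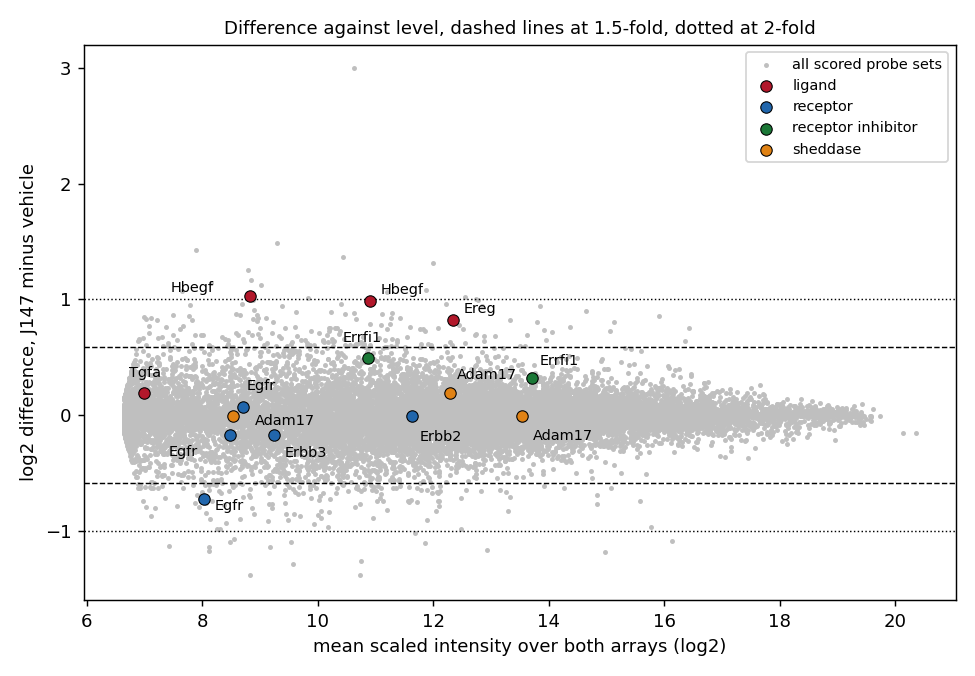
Log2 difference, J147 minus vehicle (vertical axis), against the mean scaled intensity over both arrays on the log2 scale (horizontal axis), for all 22545 scored probe sets (grey) and the 14 of the EGF family, coloured by role. Both Hbegf probe sets and that of Ereg lie above the dashed line at 1.5-fold, both of Errfi1 lie between it and 0, and 1 of Egfr lies below the lower dashed line.

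The rest of the pathway was described from 7 lists of other genes, each gene read from its brightest probe set. Of 59 scored genes, 5 were at least 1.5-fold higher on the J147 array, against 0.556% of all scored genes, and none was at least 1.5-fold lower, against 0.81%. All 5 belong to the list of genes that ERK signalling is known to induce. The lists were chosen with earlier results of these data known, so this count is a description and not a test. Of the other ligand genes, 2 of 6 were scored. Nrg1, a neuregulin that binds ERBB3 and ERBB4, had a log2 intensity of 5.60 for J147 and 5.57 for vehicle, and Egf had 2.39 on both arrays. The gene of the remaining receptor, Erbb4, lay at the lowest value for J147 and for vehicle.

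Of the other sheddases and their regulators, 9 of 10 genes were scored, none passed 1.5-fold in either direction, and the median log2 difference was -0.05. The largest differences were those of 2 membrane metalloproteases. Adam8 probe set 1416871_at gave scaled intensities of 1363 for J147 and 975 for vehicle, a log2 difference of 0.48. Adam19 probe set 1418402_at had 680 for J147 and 515 for vehicle, a fold of 1.32. Its other probe set, 1418403_at, lay close to the lowest value, with the same deposited log2 intensity of 2.44 for J147 as for vehicle. Receptor adaptors and effectors, with 12 scored genes, had a median of -0.00 and none past 1.5-fold, with log2 differences of -0.25 for Sos2, an exchange factor that activates RAS, and 0.20 for the docking protein Gab2. The 13 scored genes of receptor turnover and negative regulation had a median of -0.02 and none past 1.5-fold, with -0.16 for Socs4 and 0.14 for Tsg101, which sorts ubiquitinated receptors for degradation. Of the RAS-ERK cascade, 6 of 12 genes are in the annotation used and were scored, and their median was 0.02, with -0.17 for the kinase gene Araf and -0.16 for Map2k1, which encodes MEK1. The 5 probe sets of Araf had log2 differences on both sides of 0. Over all scored genes, 0.556% were at least 1.5-fold higher and 0.81% at least 1.5-fold lower. At such shares, finding none in lists of this size does not set them apart from other genes.

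Genes that ERK signalling is known to induce had 17 scored members of 18, with a median log2 difference of 0.22, or 0.14 without probe sets that can match several transcripts by their suffix, and that shift was known when the list was made. At least 1.5-fold higher were Egr3, Egr1, Dusp4, Fosl1 and Spry2, and 12 were neither higher nor lower by that much. The threshold makes no sharp division, since Spry2 passed it at a fold of 1.504. Egr2 and Dusp5 fell just short, at 1.485 and 1.475, and a second Egr2 probe set, near the lowest value, had 1.03. With 50 added to each intensity, 4 genes of all the lists passed 1.5-fold in place of 5. Fosl1, which encodes the AP-1 subunit FRA1, had 2 probe sets, with folds of 1.69 and 1.92. Spry2 encodes an inhibitor of receptor tyrosine kinase signalling, and probe set 1436584_at reached a scaled intensity of 2869 for J147 and 1907 for vehicle, a log2 difference of 0.59, while 1421656_at lay close to the lowest value. Spred2, which encodes an inhibitor of the RAS-ERK cascade, counts among the 12 by its brightest probe set, 1434403_at, with a log2 intensity of 8.59 for J147 and for vehicle. Its 4 scored probe sets did not move alike, with log2 differences that ran from -0.04 to 1.43. The highest of these was that of 1441802_at, with scaled intensities of 391 for J147 and 146 for vehicle, a fold of 2.69. Of the genes in these lists whose brightest probe set did not pass 1.5-fold, Spred2 was the 1 gene with another scored probe set that did. Dusp6, a phosphatase of ERK, had a log2 difference of -0.11, and the values of Fos were close to the lowest, at log2 intensities of 2.46 for J147 and 2.62 for vehicle.

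**Figure D3:**
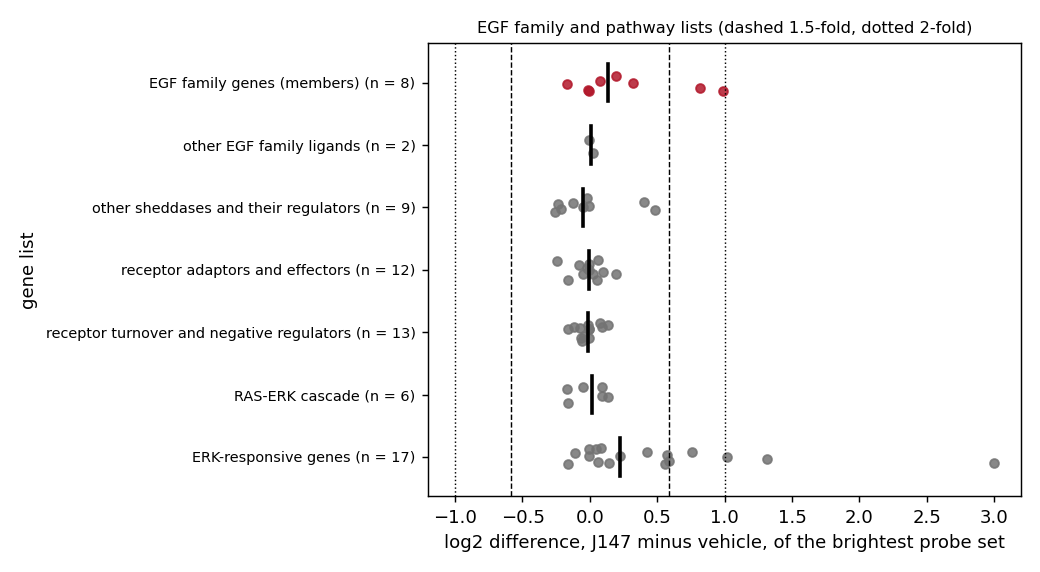
Log2 difference, J147 minus vehicle, of the brightest probe set (horizontal axis) for each scored gene (points) of the EGF family and of the pathway lists with a scored gene (vertical axis, number of genes in parentheses), with the median of each list as a black bar. The points of Hbegf and Ereg in the EGF family lie at 0.99 and 0.82, and in the pathway lists the 5 genes past 1.5-fold are all in the ERK list.

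The genes most like Hbegf were sought as those whose log2 values on the J147 and vehicle arrays lay nearest to its own, by distance over the 2 arrays, which is likeness over 2 values only. The nearest was Cox7c, a subunit of cytochrome c oxidase, at a distance of 0.02 log2 units and with a log2 difference of 0.97. Its other probe set had 0.72. Next were Pxdc1 at a distance of 0.27, with a log2 difference of 0.60, and the nuclear receptor gene Nr4a1 at 0.30, with a log2 difference of 0.78.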

How the data were processed

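HT22 RNA was labelled with biotin and hybridized to GeneChips, 1 for J147 and 1 for vehicle. The authors summarised the probes with gcRMA in R, which corrects background by probe GC content, and deposited log2 intensities; the version of gcRMA is not given. Affymetrix Expression Console 1.0 is named in the submitters' processing notes. The deposited table holds 45101 probe sets, 64 of them controls, and names no genome build.

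Without the controls, each array was scaled to a median of 100, as the methods describe, and probe sets with a mean above 100 were scored. Scaling moved every log2 difference by -0.00459. Of the 45037 probe sets, 34945 have 1 gene symbol, 932 several and 9160 none. Symbols were updated through Entrez numbers to RefSeq (GRCm38.p6). With 1 array per condition no test was run, and thresholds of 1.5-fold and 2-fold were used. The members and gene lists were chosen with earlier results of these data known, and the ranges of level were set after values were seen. Named were all members, the genes of each list at least 1.5-fold different, or else its 2 largest differences, and the 3 genes nearest to Hbegf. Dusp5, Dusp6, Egr2, Fos, Spred2 and Epgn were added after their values were seen. Alternatives included quantile normalization, no scaling, a lowess correction (span 0.3), a pseudocount of 50, other filters and other ways to combine probe sets. Python 3.11.15, numpy 2.4.6, pandas 2.3.3, statsmodels 0.14.6 and matplotlib 3.10.9 were used. On simulated data from the 22545 scored probe sets, 99 of 100 probe sets given a fold of 2.5 and 2 of 50 given 1.5 passed 2-fold with the correct sign. Before the folds were given, differences of at least 2-fold were replaced by no difference. All were then shuffled across probe sets, so scatter no longer depended on level. The number of arrays limits the precision.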

Additional observations from a re-analysis of the deposited data

How the results depend on the processing

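The alternatives gave 181 values. Of these, 173 were near the value in the report, 7 moved and 1 changed sign, where near is a ratio of at most 1.5 for a count, 1 SD among the 500 neighbours in level for a probe set and 0.1 log2 units for a median. All 56 values of single probe sets were near. Those without scaling had to be, since scaling moved every log2 difference by the same -0.00459. Hbegf probe set 1418350_at ranged from 0.96 to 1.02, 1418349_at from 0.93 to 1.05, Ereg from 0.81 to 0.84 and Egfr probe set 1435888_at from -0.73 to -0.61. The count of EGF family probe sets at least 2-fold higher, 1 as reported, was 2 with quantile normalization, 2 with the lowess correction and 0 with 50 added to each intensity, since both Hbegf probe sets lie next to that threshold. By the brightest probe set of each gene, 0 genes were 2-fold higher and 0 were 1.5-fold lower, and by the mean of the scored probe sets 0 were 1.5-fold lower, since the other Egfr probe sets differ from 1435888_at. The median of the family was -0.0046 with no filter on intensity, where 9 probe sets at the lowest value enter. This is the value that changed sign, and it equals the shift made by scaling. The median of the ERK list, 0.22 as reported, was 0.32 for intensities above 200 and 0.14 without probe sets of suffix _x_at, _s_at or _a_at, the highest and lowest of its alternatives. No paired analysis was possible because each condition had 1 array. The lowest gcRMA value hides any change in Btc and in most probe sets of Tgfa and Egfr.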
